A study of Mus musculus with 12 samples.

Results

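The expression of 10 genes that encode NF-kappaB subunits and the feedback inhibitors of the pathway was examined in neutrophils of 3 groups of mice. The genes are Tnfaip3, Nfkbia, Nfkbie, Nfkbiz, Nfkb1, Nfkb2, Rel, Relb, Bcl3 and Tnip1. They were chosen by name, as the rows of the count tables whose Ensembl identifier belongs to these symbols, and they are 10 of the 55335 genes listed for each library. All 10 passed the filter on low counts in every comparison. Tumor associated neutrophils (TANs) were taken from mammary tumors of PyMT mice, which carry the polyoma middle T oncogene as a transgene, and of PyMT-Cxcr2-/- mice, which carry the same transgene and lack the chemokine receptor Cxcr2 in every cell (TANs without Cxcr2). Bone marrow (BM) neutrophils were taken from WT mice that carry neither the transgene nor the deletion. All mice were 10 weeks old, on the FVB background and housed under SOPF conditions, with 4 mice per group and 1 library per mouse. The cells were sorted as CD45+ CD11b+ Ly6G+ F4/80- after a CD11b enrichment, so WT BM neutrophils differ from TANs in tissue, in genotype and in the enzymatic digestion that only tumors received, and these cannot be told apart.

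NF-kappaB is a family of transcription factors that act as dimers and that are held in the cytoplasm of resting cells by IkappaB proteins. Signals from receptors of the TNF, interleukin-1 and Toll-like families lead to the loss of the IkappaB protein, and the freed dimer moves to the nucleus and induces inflammatory genes. Several of these target genes encode the inhibitors themselves, which closes a feedback loop, and in neutrophils the pathway is known for prolonging survival and for driving the production of cytokines and chemokines. Nfkb1 and Nfkb2 encode the precursors p105 and p100, which are processed to p50 and p52, while Rel and Relb encode the subunits c-Rel and RelB that activate transcription. Nfkbia and Nfkbie encode the cytoplasmic inhibitors IkappaB-alpha and IkappaB-epsilon. Bcl3 and Nfkbiz encode IkappaB proteins of the nucleus, which bind p50 or p52 dimers on DNA and adjust which targets are induced. Tnfaip3 encodes A20, which edits ubiquitin chains on the signaling complexes and so dampens the signal, and Tnip1 encodes a partner of A20.

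The total count on genes was 25032704 to 51351569 per library, and the 10 genes had between 764 and 172289 counts per library. Values are given as CPM, counts relative to the size of the library, with the size adjusted by TMM factors over the 12 libraries, and differences as log2 fold changes from edgeR's quasi-likelihood test of the 2 groups compared, with p adjusted over all genes tested. These folds use the scaling of the 8 libraries compared, so they can differ somewhat from the ratio of the CPM. A gene was called at an adjusted p under 0.05 and a difference of 1.5-fold or more. The mean CPM of Cxcr2 was 1196 in PyMT TANs, 2035 in WT BM neutrophils and 9.38 in PyMT-Cxcr2-/- TANs, as the labels state. The summed CPM of 10 neutrophil markers ranged from 75224 to 99930 in WT BM neutrophils, from 11058 to 17327 in PyMT TANs and from 18096 to 29448 in TANs without Cxcr2, and no marker of this list was at 0. The list includes Cxcr2 itself, and S100a8 and S100a9, with means of 28310 and 35207 CPM, made up most of the BM sum. Of the 10 markers, 8 were called lower than in the BM in PyMT TANs and 9 in PyMT-Cxcr2-/- TANs, and none was called higher. The summed CPM of 12 macrophage markers ranged from 222 to 317 in WT BM neutrophils, from 2266 to 5490 in PyMT TANs and from 2458 to 5156 in TANs without Cxcr2, and all 12 were called higher in both TAN groups than in the BM. Of 10 epithelial markers, whose sum was 49.3 to 472 CPM in TANs, 5 were at 0 in all BM libraries. The summed CPM of 16 early response and heat shock genes known to rise on tissue dissociation was 12991 to 20896 in TANs and 6128 to 7476 in WT BM neutrophils. The 10 genes are not on this list, and whether they rise on dissociation was not tested.

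All positions are on GRCm38 (mm10), from GENCODE M21. On the plus strand lie Nfkbie at chr17:45555703-45563169 and Nfkb2 at chr19:46304320-46312385. On the minus strand lie Tnfaip3 at chr10:19000910-19015657, Tnip1 at chr11:54910785-54962917, Nfkbia at chr12:55489410-55492647, Nfkbiz at chr16:55811375-55838899, Bcl3 at chr7:19808462-19822770, Nfkb1 at chr3:135584655-135691547, Rel at chr11:23736847-23770970 and Relb at chr7:19606217-19629438.

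Because the genes that encode the inhibitors are textbook targets of the pathway, the sequence around their starts is shown for the members that could be matched. A window of 300 bases, 250 before and 50 after the start of transcription, was present in the RefSeq promoter table of build GRCm38.p6 for 7 of the 10 genes, with 10 windows in all, and Nfkb1, Nfkbiz and Relb were not matched. The kappaB consensus, the 10-base sequence that NF-kappaB dimers bind, was searched on both strands and matched in all 7 genes and in 9 of the 10 windows. It matched in 8.46% of the 32851 windows of the table, while the looser pattern GGGNNNNNCC, which holds every consensus match, occurred in 50.8% of them on either strand. For each gene 1 run of matched bases is given 5′ to 3′ on the strand of the gene, with the match in capitals. Overlapping matches were merged, as in Tnip1, where 3 matches make a run of 12 bases.
Tnfaip3 (minus strand, chr10:19015403-19015432): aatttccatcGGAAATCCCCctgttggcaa
Nfkbia (minus strand, chr12:55492657-55492686): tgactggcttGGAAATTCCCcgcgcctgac
Nfkbie (plus strand, chr17:45555584-45555613): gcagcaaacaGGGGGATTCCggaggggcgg
Nfkb2 (plus strand, chr19:46304689-46304717): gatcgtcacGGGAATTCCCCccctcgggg
Rel (minus strand, chr11:23771042-23771070): gtaagcagcGGGAAATCCCCccccctccc
Bcl3 (minus strand, chr7:19822734-19822763): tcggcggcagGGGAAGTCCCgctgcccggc
Tnip1 (minus strand, chr11:54962978-54963007): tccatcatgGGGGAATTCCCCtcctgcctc
The run lay 12 to 3 bases upstream of the start in Tnfaip3, 29 to 20 in Nfkbia, 106 to 97 in Nfkbie, 39 to 29 in Nfkb2, 92 to 82 in Rel and 58 to 47 in Tnip1. In Bcl3 it lay 3 to 12 bases into the transcript. Tnfaip3 had a second run in the same window, 125 to 116 bases upstream. The Nfkb2 run shown is in the first of the 3 windows of this gene, where a second run followed 11 to 2 bases upstream of the start. In the GENCODE annotation all 250 upstream bases of the first Nfkb2 window lie in exons, as do 110 of the 250 upstream bases of this Tnfaip3 window, while the stretches before Nfkbia, Nfkbie and Tnip1 lie outside exons. The gene and strand to which these exons belong were not checked. These matches describe the letters only and say nothing of binding in these cells.

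The whole stretch upstream of the start is shown for Nfkbia, whose level rose in both TAN groups, and for Tnip1, which was not called in either, since each holds a single run of the consensus close to the start. Both are given 5′ to 3′ on the minus strand of GRCm38.p6, up to the base before the start, with the run in capitals.
Nfkbia (chr12:55492648-55492897): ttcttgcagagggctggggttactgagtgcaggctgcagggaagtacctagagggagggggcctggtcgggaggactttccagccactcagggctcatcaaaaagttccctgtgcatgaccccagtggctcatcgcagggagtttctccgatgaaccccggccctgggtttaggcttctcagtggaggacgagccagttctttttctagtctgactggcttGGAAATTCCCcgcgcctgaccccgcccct
Tnip1 (chr11:54962941-54963190): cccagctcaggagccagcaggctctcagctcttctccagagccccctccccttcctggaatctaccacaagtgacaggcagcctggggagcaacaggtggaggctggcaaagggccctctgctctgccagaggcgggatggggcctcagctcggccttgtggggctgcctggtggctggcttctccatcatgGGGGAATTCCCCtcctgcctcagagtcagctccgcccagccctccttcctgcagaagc

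Levels were first compared among the 10 genes within each group, per kilobase of exon, since a longer transcript gives more reads. The length was the union of all annotated exons of a gene, such as 12.061 kb for Nfkb1 and 3.885 kb for Relb. It can exceed the length of the transcripts present, so the order between genes depends on it. In WT BM neutrophils, Nfkbiz and Nfkbia led with 125 ± 28.8 and 122 ± 19.5 CPM per kb (mean ± SD, n = 4, as for all means below), and their ranges over mice overlapped. They were followed by Tnip1 at 29.5 ± 4.41, Bcl3 at 27.7 ± 3.57, Nfkb1 at 20.6 ± 2.41 and Nfkbie at 19.0 ± 2.14 CPM per kb, where each overlapped its neighbour. Rel had 14.3 ± 1.03, Nfkb2 had 12.5 ± 1.11 and Tnfaip3 had 10.1 ± 0.491 CPM per kb, and Relb was lowest with 5.97 ± 0.288 CPM per kb, below every library of Tnfaip3.

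In PyMT TANs the order of the levels was different. Nfkbia led with 1339.5 ± 309 CPM per kb, above every library of the next gene, Nfkbiz, at 411 ± 39.9. Tnfaip3, the ninth gene in the BM, was now the third with 342 ± 27.6 CPM per kb, overlapping Nfkbiz. Nfkbie followed with 115 ± 13.4, then Nfkb2 with 64.7 ± 6.39, Rel with 57.7 ± 12.3 and Bcl3 with 53.8 ± 7.80 CPM per kb, the last 3 overlapping their neighbours. Tnip1 had 37.2 ± 4.51, Relb 25.8 ± 2.28 and Nfkb1 22.6 ± 8.49 CPM per kb, so that Nfkb1 moved from the fifth to the last place. PyMT-Cxcr2-/- TANs had Nfkbia at 1248 ± 309, Nfkbiz at 577 ± 117, Tnfaip3 at 367 ± 99.3 and Nfkbie at 156 ± 32.4 CPM per kb at the top. Bcl3 came next with 97.6 ± 12.7, overlapping Nfkb2 at 89.1 ± 15.8, and was followed by Rel at 58.4 ± 12.1, Tnip1 at 31.6 ± 5.34, Relb at 30.7 ± 4.34 and Nfkb1 at 24.8 ± 3.09 CPM per kb.

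**Figure D1:**
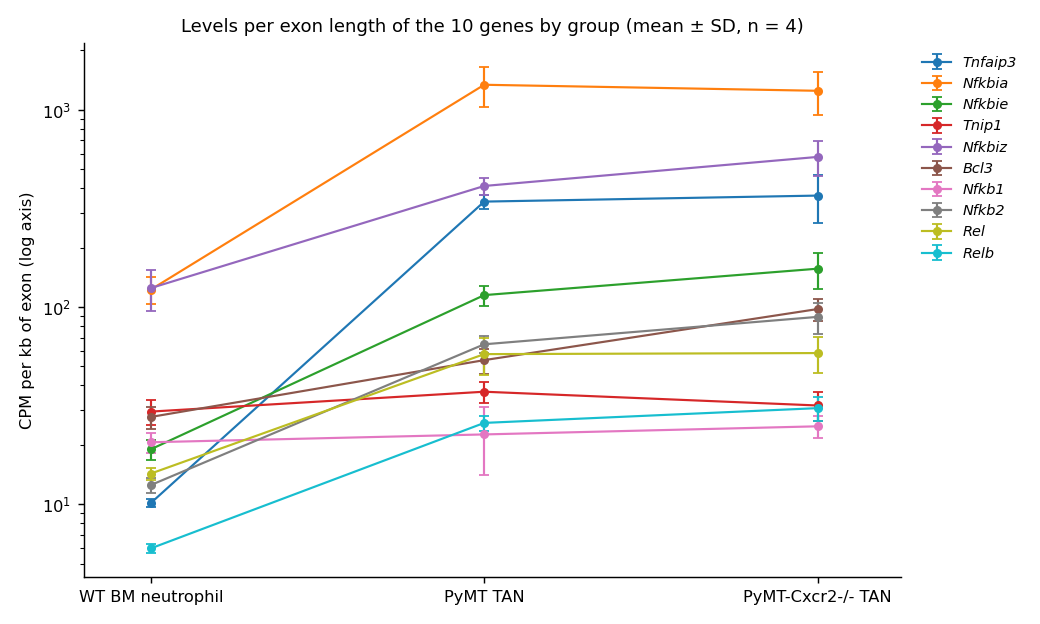
Mean CPM per kb of exon (log axis) of the 10 genes in WT BM neutrophils, PyMT TANs and PyMT-Cxcr2-/- TANs, with bars for the SD over 4 mice; the lines join the groups for reading only. Tnfaip3 lies near the bottom in the BM, at 10.1 CPM per kb, and in the third place from the top in both TAN groups, while Nfkb1 and Tnip1 stay nearly level.

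The question of the first comparison was how TANs of PyMT mice differ from BM neutrophils. Of the 10 genes, 8 were higher in PyMT TANs, none was lower, and Nfkb1 and Tnip1 were not called. Of the 17153 genes tested, 30.1% were called higher in PyMT TANs and 23.2% lower, 53.3% in all, so a call alone is common in this comparison. The median log2 fold change of the 10 genes was 2.13, against 0.09 over all genes tested. In PyMT-Cxcr2-/- TANs compared with the same BM libraries, 8 of the 10 genes were higher and the same pair was not called, where 34.4% of 17732 genes tested were called higher and 25.1% lower, 59.5% in all. The same number, 8 of the 10 genes, had every TAN library above every BM library, as did 28.7% of the genes tested for PyMT TANs and 32.2% for PyMT-Cxcr2-/- TANs. The median log2 fold change was 2.42 for the 10 genes and 0.09 for all genes. Both comparisons share the BM libraries and are therefore not independent. In bulk RNA, more cells of a type and more RNA per cell cannot be told apart.

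Among the inhibitors that are thought to restrain signaling, Tnfaip3 had the largest fold change of the 10 genes. It had 71.6, 76.9, 75.3 and 69.0 CPM in the 4 libraries of WT BM neutrophils, 2629, 2206, 2624 and 2435 CPM in PyMT TANs and 2386, 1769.6, 3104 and 3354 CPM in TANs without Cxcr2. The BM libraries lay within 10 CPM of each other and far below every TAN library. The log2 fold change was 5.15 ± 0.14 (SE), which is 35.4-fold, in PyMT TANs (adjusted p = 4.3e-09) and 5.31 ± 0.20, which is 39.8-fold, in PyMT-Cxcr2-/- TANs (adjusted p = 3.9e-10, both edgeR).

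Tnip1, the partner of A20, did not follow. Its CPM was 128, 97.9, 95.7 and 96.0 in WT BM neutrophils, 148, 137, 130.3 and 110.3 in PyMT TANs and 100.5, 91.5, 129 and 127 in PyMT-Cxcr2-/- TANs. The ranges of the groups overlapped, with BM replicate 1 apart from the other BM libraries. The log2 fold change was 0.40 ± 0.14 in PyMT TANs, with an edgeR adjusted p of 0.025 but a size of 1.32-fold, under the limit of 1.5-fold. It was 0.24 ± 0.13 in PyMT-Cxcr2-/- TANs (adjusted p = 0.12, edgeR), and became -0.04 when the trends with GC content and gene length were removed. Within a library, Tnfaip3 had 0.561 to 0.786 times the CPM of Tnip1 in the BM, 16.1 to 22.1 times in PyMT TANs and 19.4 to 26.3 times in PyMT-Cxcr2-/- TANs.

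Both cytoplasmic IkappaB genes were higher in TANs. Nfkbia, for IkappaB-alpha, had 203, 234, 158 and 194 CPM in WT BM neutrophils, 2879, 1990.2, 2022 and 1736 CPM in PyMT TANs and 1932, 1337, 2386 and 2386 CPM in TANs without Cxcr2. The lowest TAN library was above every BM library several fold, and the TAN groups overlapped each other. Its log2 fold change was 3.52 ± 0.19, or 11.4-fold, in PyMT TANs and 3.48 ± 0.20, or 11.2-fold, in PyMT-Cxcr2-/- TANs (edgeR adjusted p = 1.3e-07 and 9.5e-09). Nfkbie, for IkappaB-epsilon, had 64.6, 49.2, 57.2 and 60.2 CPM in WT BM neutrophils, 329.9, 326, 332 and 411 CPM in PyMT TANs and 379, 418, 601 and 507 CPM in TANs without Cxcr2. PyMT TAN replicate 4 stood above the other PyMT TAN libraries and reached into the range of the PyMT-Cxcr2-/- TANs. The log2 fold change of Nfkbie was 2.67 ± 0.14 in PyMT TANs and 3.18 ± 0.15 in PyMT-Cxcr2-/- TANs (edgeR adjusted p = 9.8e-08 and 2.9e-09), that is 6.35-fold and 9.05-fold.

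The nuclear IkappaB genes Nfkbiz and Bcl3 rose less. Nfkbiz had 419.6, 757, 652 and 675 CPM in WT BM neutrophils, 2175, 1812, 1997 and 2263 CPM in PyMT TANs and 2489, 2310.5, 3238 and 3540.2 CPM in TANs without Cxcr2, so that none of the 3 groups overlapped. Its log2 fold change was 1.79 ± 0.18, or 3.46-fold, in PyMT TANs (adjusted p = 9.0e-06) and 2.34 ± 0.20, or 5.07-fold, in PyMT-Cxcr2-/- TANs (adjusted p = 2.7e-07, both edgeR). Bcl3 had 72.6, 78.0, 57.5 and 65.9 CPM in WT BM neutrophils, 152, 143, 130.2 and 107 CPM in PyMT TANs and 209, 222, 259 and 276 CPM in TANs without Cxcr2. Here too the 3 groups were separate, with the PyMT TANs in the middle. The log2 fold change over the BM was 1.02 ± 0.14, or 2.03-fold, in PyMT TANs and 1.95 ± 0.12, or 3.87-fold, in PyMT-Cxcr2-/- TANs (edgeR adjusted p = 8.6e-05 and 2.3e-08). An exon of Bcl3 is overlapped by the antisense gene Gm16175 and exons of Nfkb2 by Psd and AC114539.1 on the other strand, and as the strand setting of the counting is not given in the sources used here, the counts of Bcl3 and Nfkb2 are uncertain to that extent.

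**Figure D2:**
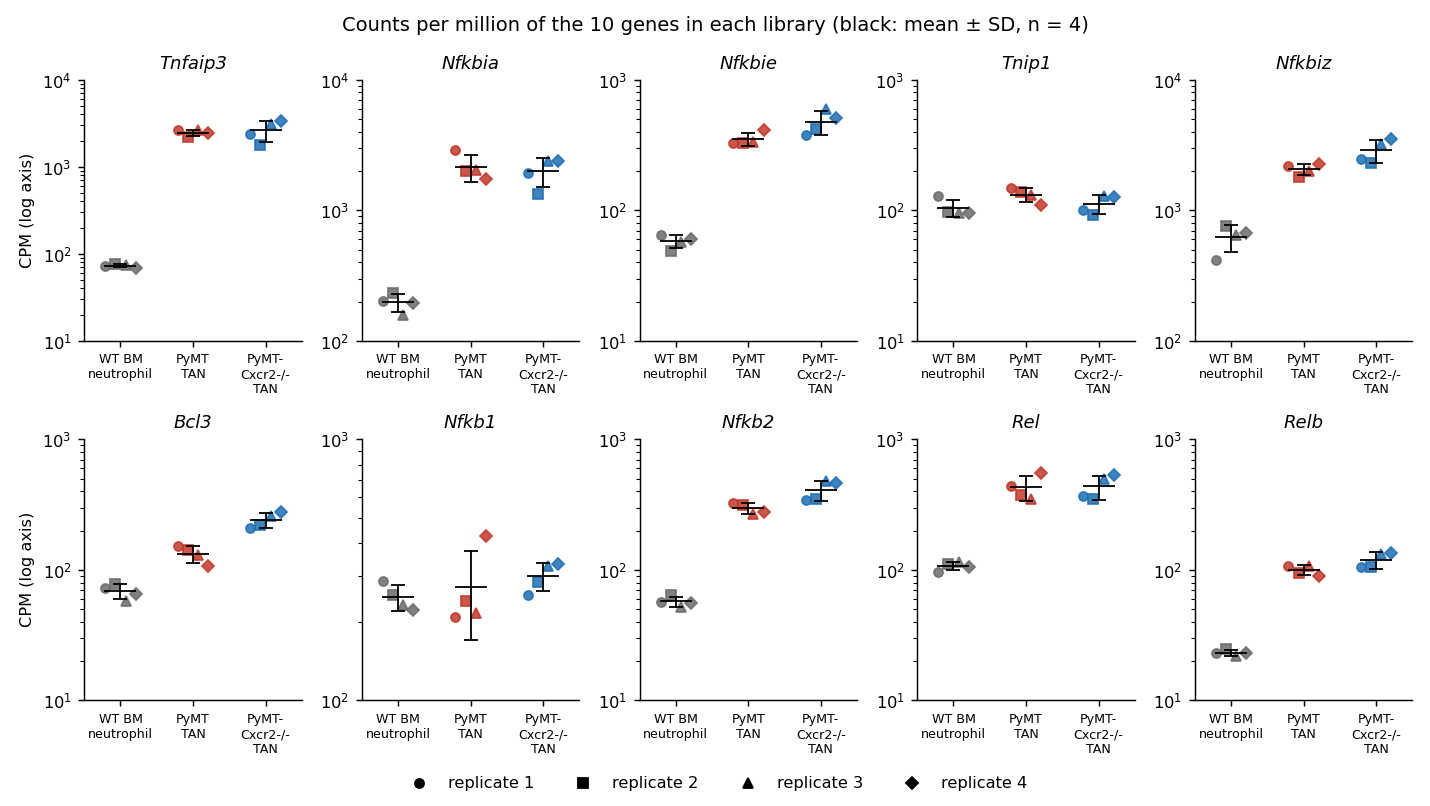
CPM (log axis) of the 10 genes in each library of WT BM neutrophils, PyMT TANs and PyMT-Cxcr2-/- TANs; the symbol gives the replicate number and black marks the mean ± SD (n = 4). In 8 panels both TAN groups sit above the BM without overlap, as for Tnfaip3 with 69.0 to 76.9 CPM in the BM and at least 1769.6 CPM in TANs, and in the panels of Nfkb1 and Tnip1 the groups overlap.

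Of the subunit genes, Nfkb2, Rel and Relb were higher in TANs and Nfkb1 was not called. Nfkb2 had 56.6, 64.3, 52.2 and 55.9 CPM in WT BM neutrophils, 328, 315, 267 and 276 CPM in PyMT TANs and 343, 350.0, 481 and 460.3 CPM in TANs without Cxcr2, with no overlap between any groups. Its log2 fold change was 2.44 ± 0.12 in PyMT TANs and 2.97 ± 0.14 in PyMT-Cxcr2-/- TANs (edgeR adjusted p = 7.6e-08 and 1.6e-09), which is 5.42-fold and 7.83-fold. Relb, whose product pairs with p52, had 22.9, 24.7, 22.02 and 23.1 CPM in WT BM neutrophils, 108, 95.4, 108 and 90.3 CPM in PyMT TANs and 105, 105, 133 and 135 CPM in TANs without Cxcr2. The TAN groups overlapped, and both lay clear of the BM, by a log2 fold change of 2.18 ± 0.11, or 4.54-fold, in PyMT TANs and 2.498 ± 0.11, or 5.65-fold, in PyMT-Cxcr2-/- TANs (edgeR adjusted p = 1.0e-07 and 1.3e-09).

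Rel, the gene of c-Rel, had 97.0, 111, 114 and 104 CPM in WT BM neutrophils, 443, 373, 351 and 555 CPM in PyMT TANs and 367, 351, 497 and 529 CPM in TANs without Cxcr2. Its log2 fold change was 2.08 ± 0.16 in PyMT TANs and 2.16 ± 0.14 in PyMT-Cxcr2-/- TANs (edgeR adjusted p = 1.1e-06 and 2.9e-08), and the TAN groups covered nearly the same range. Nfkb1, the gene of p105, had 287, 253, 233 and 221 CPM in WT BM neutrophils, 208, 239.7, 217 and 425 CPM in PyMT TANs and 254, 284, 326 and 333 CPM in TANs without Cxcr2. All groups overlapped, and PyMT TAN replicate 4 stood well above the other 3 libraries of its group. The log2 fold change of Nfkb1 was 0.20 ± 0.22 in PyMT TANs, with a 95% interval from -0.28 to 0.69 (adjusted p = 0.46, edgeR), and it became -0.11 without PyMT TAN replicate 4 and -0.21 with the trends of GC content and length removed. In PyMT-Cxcr2-/- TANs it was 0.40 ± 0.12, with an edgeR adjusted p of 0.0078 but a size of 1.32-fold. Rela, the gene of the subunit p65, which is not among the 10 genes, had a mean of 116 ± 14.9 CPM in WT BM neutrophils, 145 ± 21.8 CPM in PyMT TANs and 174 ± 23.1 CPM in TANs without Cxcr2. It was not called in PyMT TANs (1.31-fold, adjusted p = 0.032, edgeR) and was called in PyMT-Cxcr2-/- TANs (1.64-fold, adjusted p = 0.00012, edgeR), although not in the fit of all 12 libraries, at 1.497-fold, nor with the trends of GC content and length removed, at 1.34-fold, while the test between the TAN groups themselves gave a log2 fold change of 0.26 that did not pass (adjusted p = 0.49, edgeR).

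The balance between the subunit genes within a library therefore differed between TANs and BM, as a description of the values above. The ratio of Nfkb2 to Nfkb1 in CPM was 0.197 to 0.254 in WT BM neutrophils, 0.650 to 1.57 in PyMT TANs and 1.23 to 1.47 in PyMT-Cxcr2-/- TANs. The ratio of Rel to Nfkb1 was 0.338 to 0.491 in the BM, 1.31 to 2.13 in PyMT TANs and 1.24 to 1.59 in PyMT-Cxcr2-/- TANs. The ratio of Relb to Nfkb1 was 0.0798 to 0.104 in the BM, 0.213 to 0.517 in PyMT TANs and 0.369 to 0.412 in PyMT-Cxcr2-/- TANs. For each ratio every TAN library was above every BM library.

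With the 2 libraries per TAN group that were highest in macrophage markers left out, 8 of the 10 genes were again called higher in PyMT TANs and 8 in PyMT-Cxcr2-/- TANs. The PyMT-Cxcr2-/- TAN libraries that remained were replicates 3 and 4, in which all 10 genes lay above the mean of that group. The TAN libraries that remained still had at least 2266 CPM of macrophage markers, and the part of this gap to the BM in the differences was not tested. The part of the tissue dissociation was not tested, since no BM library was digested. The 10 genes were called in equal number under every other setting tried for these comparisons, except that 9 passed in each when no limit on the fold was set.

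**Figure D3:**
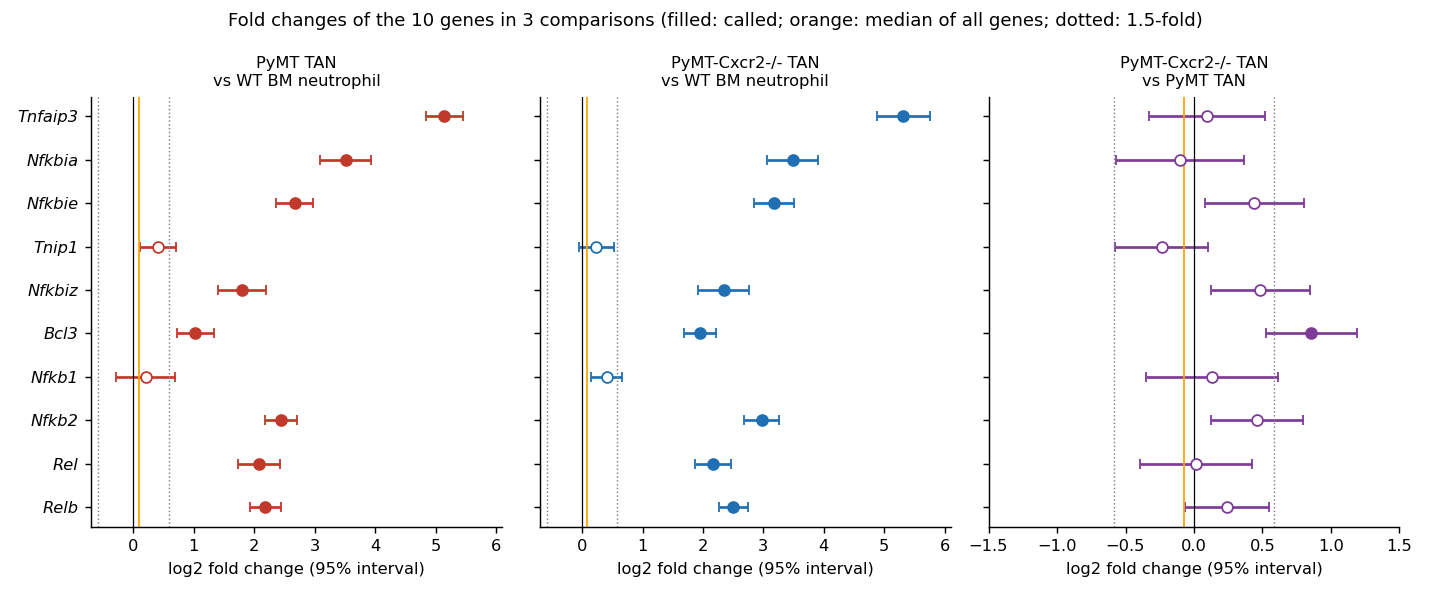
Log2 fold changes of the 10 genes with 95% intervals in 3 comparisons; filled points were called, the orange line is the median of all genes tested and dotted lines mark 1.5-fold. In both comparisons with the BM 8 points are filled and lie at 1.02 or more, and between the TAN groups, on a narrower axis, only that of Bcl3 is filled, at 0.86.

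The second question was whether the loss of Cxcr2 changed these genes in TANs. Of the 10 genes, 1 was called, Bcl3, which was higher in PyMT-Cxcr2-/- TANs, and none was lower. Of the 18463 genes tested, 1.98% were called in either direction and 1.38% were higher. Bcl3, given above per library, had a mean of 133 ± 19.3 CPM with Cxcr2 and of 242 ± 31.3 CPM without it, with no overlap, and a log2 fold change of 0.86 ± 0.15, or 1.81-fold (adjusted p = 0.019, edgeR). This call did not hold under all settings. The adjusted p by edgeR was 0.071 without PyMT TAN replicate 2, 0.077 without PyMT-Cxcr2-/- TAN replicate 3 and 0.068 without PyMT-Cxcr2-/- TAN replicate 4, with log2 fold changes of 0.90, 0.84 and 0.81. With the 2 libraries per group highest in macrophage markers left out, the log2 fold change was 1.05 and the edgeR adjusted p 0.35. The PyMT-Cxcr2-/- TAN libraries kept there were replicates 3 and 4, in which Bcl3 lay above the mean of that group. Over all settings tried the adjusted p ranged from 7.6e-05 to 0.35, and the log2 fold change from 0.77 to 1.05.

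Of the others, Nfkb2 and Nfkbiz did not overlap between the TAN groups either, so that 3 of the 10 genes lay higher in PyMT-Cxcr2-/- TANs with no overlap, beside 6.34% of all genes tested. Nfkb2 had a log2 fold change of 0.46 ± 0.15, with a 95% interval of 0.12 to 0.79 (adjusted p = 0.16, edgeR), and Nfkbiz 0.49 ± 0.17, with an interval of 0.12 to 0.85 (adjusted p = 0.17, edgeR). With DESeq2 the adjusted p was 0.056 for Nfkb2 and 0.047 for Nfkbiz, at log2 fold changes of 0.52 and 0.55, both under the fold limit. For Nfkbie the difference was 0.44 ± 0.16, with an interval of 0.08 to 0.80 (adjusted p = 0.21, edgeR), and for Relb 0.24 ± 0.14, with an interval of -0.06 to 0.55 (adjusted p = 0.47, edgeR). The test did not pass for Tnfaip3, with a 95% interval of -0.33 to 0.52, for Nfkbia, with -0.57 to 0.36, for Rel, with -0.40 to 0.43, for Nfkb1, with -0.35 to 0.61, and for Tnip1, with -0.58 to 0.10, all on the log2 scale. In the main edgeR fit the intervals of Tnfaip3, Nfkbia, Rel and Tnip1 stay within 1.5-fold (0.58 on the log2 scale) in both directions, those of Nfkbia and Tnip1 only just. The interval of Nfkb1 does not. The median log2 fold change of the 10 genes between the TAN groups was 0.19 and that of all genes -0.07.

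The replicates of the PyMT-Cxcr2-/- TANs were not alike in these genes. All 10 genes lay above their group mean on the log2 scale in replicates 3 and 4 and below it in replicates 1 and 2. The median deviation of the 10 genes was -0.20 and -0.24 in replicates 1 and 2 and 0.21 and 0.20 in replicates 3 and 4, while 44.7% to 56.2% of 11092 genes were above the group mean in these 4 libraries. With the library totals alone as the scale, 1, 1, 10 and 9 of the 10 genes were above the mean in replicates 1 to 4. The summed CPM of the macrophage markers was 4498 and 5156 in replicates 1 and 2 and 2951 and 2458 in replicates 3 and 4. The epithelial sum was 251 and 331 against 87.2 and 124 CPM. The sum of early response and heat shock genes was 19192 and 16964 against 20896 and 20375 CPM. Sums of neutrophil and lymphocyte markers also separated these pairs, and sums of granule genes and of dendritic, fibroblast and endothelial markers did not. The lymphocyte sum was mostly Cd3d, with a mean of 27.9 CPM in PyMT-Cxcr2-/- TANs. Cd3d had 221 CPM in WT BM neutrophils, where Cd3e had 0.21 CPM, so this sum is no clear measure of lymphocytes. The part of all these sums in the spread was not tested. In PyMT TANs, 8 of the 10 genes were above the group mean in replicate 1, as were 59.6% of all 11092 genes, and with library totals alone as the scale 5 of the 10 were. In WT BM neutrophils the coefficient of variation was lowest for Relb, at 4.82%, and Tnfaip3, at 4.85%. It was 12.9% for Bcl3, 15.9% for Nfkbia and highest for Nfkbiz, at 23.1%, whose replicate 1 was lowest.

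**Figure D4:**
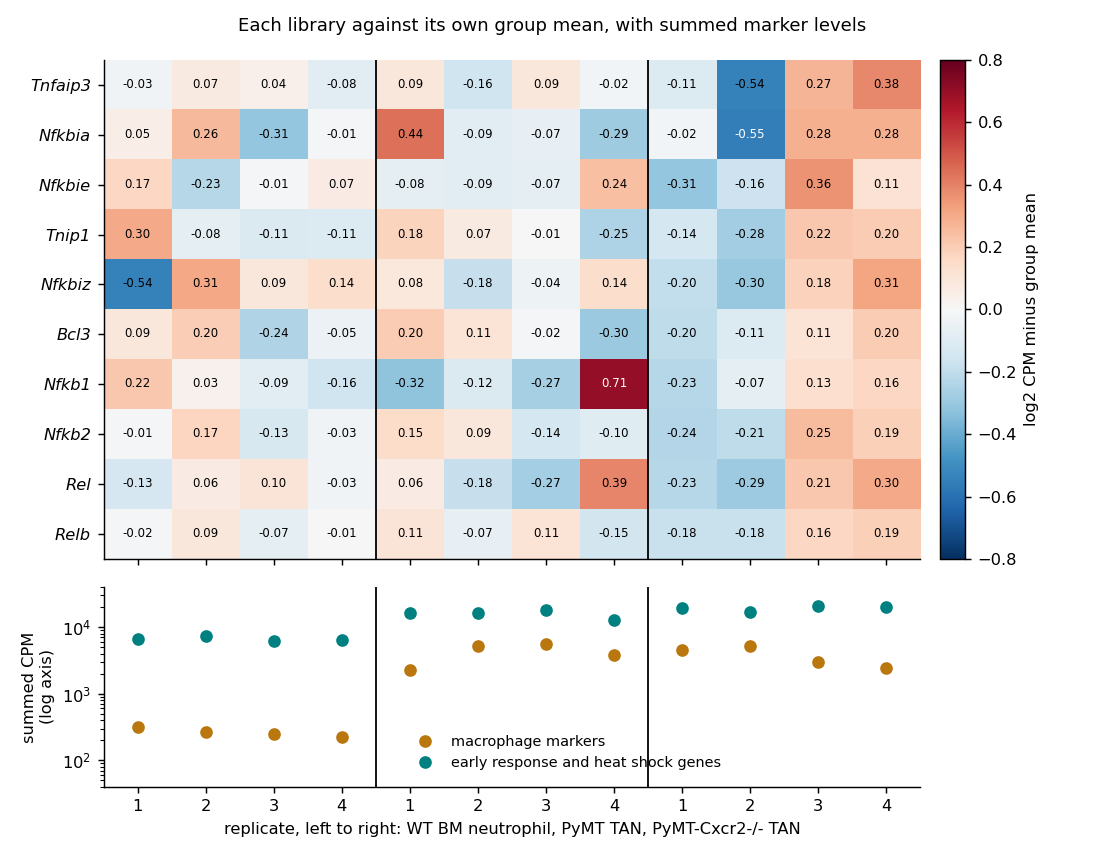
Log2 CPM of the 10 genes minus the mean of the library's own group (top, colour and printed values) and the summed CPM (log axis) of macrophage markers and of early response and heat shock genes in the same libraries (bottom). In PyMT-Cxcr2-/- TANs the columns of replicates 1 and 2 hold only negative values and those of replicates 3 and 4 only positive ones, and the single value of 0.71 belongs to Nfkb1 in PyMT TAN replicate 4.

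Within groups the genes tended to vary together, as a description over 12 libraries that share their depth and scaling within each column. Of the 45 pairs of the 10 genes, 40 had a positive correlation of their deviations from the group mean, with a median Pearson r of 0.52. The closest pairs were Nfkb2 with Bcl3, at r = 0.83, and Tnfaip3 with Relb, at r = 0.81. The lowest r, -0.23 between Nfkb1 and Bcl3, rested on PyMT TAN replicate 4. Without that library it was 0.69, and 44 of the 45 pairs were positive. Leaving out any 1 PyMT-Cxcr2-/- TAN library went the other way, with 36 to 37 positive pairs and a median r of 0.41 to 0.46. Leaving out 1 library does not remove the split among the PyMT-Cxcr2-/- TAN replicates. Pairs of other genes were not examined, so whether the 10 genes vary together more than others was not tested. Among 7313 other genes that reached a log2 CPM of 3 or more on average, those whose deviations were most like the mean deviation of the 10 genes were Kpna4 with r = 0.97, Smim3 with r = 0.96, 9330160F10Rik with r = 0.96, 4930523C07Rik with r = 0.94 and Rc3h2 with r = 0.93, over the same 12 libraries. That mean deviation was -0.18, -0.27, 0.22 and 0.23 in PyMT-Cxcr2-/- TAN replicates 1 to 4. It lay between -0.073 and 0.092 in the libraries of the other groups, so these r rest mostly on the split within PyMT-Cxcr2-/- TANs. Kpna4 had a mean of 292 CPM in the BM, 439 CPM in PyMT TANs and 505 CPM in TANs without Cxcr2, while Rc3h2 was lower in both TAN groups, with 124 and 131 CPM, than in the BM, with 234 CPM.

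The rest of the pathway was then followed from its ligands to its targets, in lists of 113 other genes. In PyMT TANs 54 of 104 tested were higher and 18 lower, with a median log2 fold change of 0.83, and in PyMT-Cxcr2-/- TANs 58 of 106 were higher and 12 lower, with a median of 0.91. The share called in either direction was 69.2% and 66.0%, beside 53.3% and 59.5% of all genes. Of 11 activating ligands, 8 could be tested, with 4 higher and 2 lower in each TAN group. Il1b, the gene of interleukin-1 beta, had 713 to 862 CPM in the BM, 7534 to 9724 CPM in PyMT TANs and 6657 to 9355 CPM in TANs without Cxcr2. Il1a had 0.371 to 0.803 CPM in the BM, 81.0 to 139 CPM in PyMT TANs and 28.4 to 56.2 CPM in TANs without Cxcr2. Tnf had 39.6 to 52.3 CPM in the BM, 123 to 231 CPM in PyMT TANs and 43.0 to 84.2 CPM in TANs without Cxcr2, which overlapped the BM. The difference of Tnf in TANs without Cxcr2 passed (1.54-fold, adjusted p = 0.0040, edgeR), but not in the fit of all 12 libraries (1.40-fold, adjusted p = 0.065, edgeR), and it was under the fold limit without PyMT-Cxcr2-/- TAN replicate 4 (1.39-fold) or without WT BM replicate 2 (1.45-fold). Tnfsf13b, the gene of the B cell factor BAFF, and Ltb, the gene of lymphotoxin beta, were the ligands that fell, with log2 fold changes of -2.18 and -1.37 in PyMT TANs and of -1.94 and -1.24 in PyMT-Cxcr2-/- TANs.

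Of 20 receptors, 10 were higher in each TAN group and 3 and 2 were lower in PyMT and PyMT-Cxcr2-/- TANs. The share called was 65.0% and 60.0%, beside 53.3% and 59.5% of all genes. Tnfrsf11a, the gene of RANK, which signals through the p100 arm as well as the classical arm, had 0.0561 to 0.371 CPM in the BM and 18.5 to 58.0 CPM in TANs. Tlr1 had a log2 fold change of 5.18 ± 0.33 in PyMT TANs and 5.45 ± 0.20 in PyMT-Cxcr2-/- TANs. Il18r1 fell, with log2 fold changes of -1.96 and -1.28 in the same order of groups, and so did Il1rl1, the receptor of interleukin-33, with -1.07 and -1.03. Tnfrsf11a in TANs was lowest in PyMT TAN replicate 1, the library with the lowest macrophage sum of its group, and its source was not tested.

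Of 29 adaptors and kinases, 28 were tested, and 7 were higher and 8 lower in PyMT TANs, 7 higher and 5 lower in PyMT-Cxcr2-/- TANs, with medians of -0.05 and -0.03, and the share called was 53.6% and 42.9%, beside 53.3% and 59.5% of all genes. Traf1, an adaptor of TNF receptors and a textbook target of the pathway, had 0.930 to 2.12 CPM in the BM and 58.2 to 107 CPM in TANs, a log2 fold change of 5.71 ± 0.26 in PyMT TANs and 5.68 ± 0.25 in PyMT-Cxcr2-/- TANs. Birc3, which encodes the ubiquitin ligase cIAP2, had a mean of 165 CPM in the BM and rose 4.01-fold and 5.56-fold, and Map3k8, the kinase that p105 holds inactive, had 32.8 CPM and rose 5.04-fold and 3.62-fold. Ticam1, the adaptor TRIF, fell, with log2 fold changes of -1.40 and -0.91, as did Card9, an adaptor of lectin receptors, with -1.23 and -0.81.

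Of the 3 further subunit and IkappaB genes, 2 were higher in PyMT TANs and 3 in PyMT-Cxcr2-/- TANs. Nfkbid, another nuclear IkappaB gene, had 114 to 135 CPM in the BM, 640.0 to 804 CPM in PyMT TANs and 704 to 1047 CPM in TANs without Cxcr2, with log2 fold changes of 2.64 ± 0.12 and 2.98 ± 0.15, while Nfkbib, for IkappaB-beta, rose by only 0.72 ± 0.20 and 0.84 ± 0.16. In PyMT TANs Nfkbib was under the fold limit with the trends of GC content and length removed, at 1.49-fold, and with the libraries highest in macrophage markers left out, at 1.40-fold. Of 16 other negative regulators, 5 were higher in each TAN group, and 3 and 1 were lower. That is 8 of 16 called in PyMT TANs, beside 53.3% of all genes, and 37.5% in PyMT-Cxcr2-/- TANs, beside 59.5%. Tnip3, a relative of Tnip1, had 0.120 to 0.172 CPM in the BM, near the limit of detection, and 3.56 to 11.4 CPM in TANs. Zc3h12a, the gene of the RNase Regnase-1 that degrades cytokine transcripts, rose by 1.30 ± 0.13 in PyMT TANs and 1.76 ± 0.15 in PyMT-Cxcr2-/- TANs. Pdlim1 had 1.16, 2.54, 4.90 and 10.7 CPM in PyMT TANs and rose there by 3.35 ± 0.71 on the log2 scale, or by 2.55 without replicate 4. Commd1 fell, with log2 fold changes of -1.14 and -1.55, and Pdlim2, which targets p65 for degradation, fell by 0.91 in PyMT TANs and had -0.44 in PyMT-Cxcr2-/- TANs, where it was not called.

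The textbook targets had the highest median of the 6 lists. In PyMT TANs 26 of 29 tested were higher and 2 lower, with a median log2 fold change of 3.65, and in PyMT-Cxcr2-/- TANs 29 of 31 were higher and 2 lower, with a median of 3.71. Of all genes, 30.1% and 34.4% were higher and 23.2% and 25.1% lower. Saa3, an acute phase gene, had 0 to 0.124 CPM in the BM and 22.3 to 136 CPM in TANs, and Cd83, a surface marker of activated myeloid cells, had 0.0600 to 0.344 CPM in the BM and 38.1 to 158 CPM in TANs. Lcn2 and Mmp9 were the targets that fell, with log2 fold changes of -4.16 and -2.75 in PyMT TANs and of -2.51 and -1.51 in PyMT-Cxcr2-/- TANs. Both are also proteins of neutrophil granules, and the summed CPM of 9 granule genes of immature neutrophils, Lcn2 among them, was 34055 to 54155 in the BM, 761 to 1013 in PyMT TANs and 2712 to 7966 in PyMT-Cxcr2-/- TANs.

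Between the TAN groups, 6 of 107 tested genes of these lists were called, 1 higher and 5 lower in PyMT-Cxcr2-/- TANs, where 1.38% and 0.596% of all genes were. Tnf, with 123, 140.2, 231 and 126 CPM in PyMT TANs and 65.7, 43.0, 68.3 and 84.2 CPM in TANs without Cxcr2, fell by 1.25 ± 0.24 on the log2 scale (adjusted p = 0.026, edgeR). Il1a, with 81.0, 94.2, 139 and 108 CPM in PyMT TANs and 56.2, 33.9, 42.8 and 28.4 CPM in TANs without Cxcr2, fell by 1.39 ± 0.23 (adjusted p = 0.015, edgeR). No library of one TAN group reached the range of the other for either ligand. Il1b did not pass, with a log2 fold change of -0.08 and an interval of -0.42 to 0.26. Ikbke, the gene of the kinase IKK-epsilon, had 27.4 to 56.6 CPM in PyMT TANs and 17.2 to 21.99 CPM in TANs without Cxcr2 and fell by 1.19 ± 0.22 (adjusted p = 0.024, edgeR).

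Of the targets, Icam1, an adhesion molecule, fell by 0.97 ± 0.19, from a mean of 259 to 133 CPM, and the chemokine gene Ccl3 fell by 0.97 ± 0.20, from 187 to 95.4 CPM, while Lcn2 rose by 1.58 ± 0.24, from 373 to 1118 CPM, with adjusted p of 0.025, 0.030 and 0.011 by edgeR. The Lcn2 mean includes 1697 CPM in PyMT-Cxcr2-/- TAN replicate 4, above the 832 to 975 CPM of the other 3 libraries, and this library was also highest in the granule genes, at 7966 CPM. These calls were sensitive to single libraries. None of the 6 was called without PyMT TAN replicate 2, where 21 of 108 genes had an unadjusted p under 0.05 by edgeR, and 1 to 3 genes of the lists were called without PyMT-Cxcr2-/- TAN replicate 1, 3 or 4. None was called with the libraries highest in macrophage markers left out, where 18 genes had an unadjusted p under 0.05 by edgeR. By DESeq2 on all 8 libraries 13 genes of the lists were called, 5 higher and 8 lower.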

How the data were processed

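Neutrophils of 12 mice, 4 per group, were sorted and profiled by paired-end RNA-seq of directional libraries depleted of ribosomal RNA. The authors ran FastQC and a trimming step before alignment by STAR on the mm10 genome, and used HTSeq to make the raw counts per gene that they deposited for each library without normalisation. The annotation release and the strand setting of the counting are not given in the sources used here. A directional library counted without strand would mix reads of overlapping genes on opposite strands. Of the 55335 Ensembl identifiers, 55154 matched a symbol in the name table. The HTSeq classes that name no gene were left out of library sizes and tests. Reads in no feature made up 32.0% to 42.4% in the BM, 39.9% to 52.5% in PyMT TANs and 45.6% to 48.7% in TANs without Cxcr2, out of those counted, assigned to no feature or to several, or not aligned uniquely, and the part of this difference in the results was not tested.

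Counts were scaled by TMM factors and filtered with filterByExpr, and the 2 groups of each comparison were fitted with edgeR 4.0.16 in R 4.3.3 (glmQLFit with robust estimation, glmQLFTest, two-sided), with Benjamini-Hochberg adjustment over all genes tested. A gene was called at an adjusted p under 0.05 and 1.5-fold or more. Log2 CPM for deviations had a prior count of 2. The fit was also run on simulated counts, whose outcome is not reported here. A difference that did not pass was not shown to be absent. A count of 3, taken as the floor, was 0.0584 to 0.120 CPM. The SE was taken as the size of the log2 fold change divided by the square root of the F statistic. Intervals are at 95%, from this SE and the t distribution, and counting error alone does not cover the spread between mice. No 2 libraries of a group agreed within sampling noise, and p-values measure the spread between these mice.

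The 10 genes, the pathway and marker lists and the tests were chosen with earlier results of these data known. Named were the 10 genes, Rela, Cxcr2, Tnf and Il1b, from each list and comparison up to 2 higher and 2 lower called genes of largest fold change with an average log2 CPM of at least 1, and the 5 genes most like the 10. Promoters came from the RefSeq table. Alternatives were RLE factors, other filters and fold limits, 12 libraries in 1 fit, a fit that was not robust, a block for the replicate number, trends with GC content and gene length, DESeq2 1.42.0, and each library left out. Leaving out 2 libraries per TAN group high in macrophage markers was chosen after seeing the data.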

Additional observations from a re-analysis of the deposited data

Results flagged for a closer look

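Single libraries stood apart from the other 3 of their group, with a gap to the nearest library above Dixon's 95% critical share of the range, in 10 of 117 groups over 39 genes, where chance gives about 1 in 20. Of the 10 genes these were Nfkbie at 411 CPM and Nfkb1 at 425 CPM, both in PyMT TAN replicate 4, and Tnip1 at 128 CPM in WT BM neutrophil replicate 1. The others were Tnf at 231 CPM in PyMT TAN replicate 3, Saa3 at 136 CPM in PyMT TAN replicate 1, Lcn2 at 1697 CPM and Il18r1 at 24.6 CPM in PyMT-Cxcr2-/- TAN replicate 4, Nfkbid at 135 CPM in WT BM neutrophil replicate 2, Mmp9 at 8568 CPM in WT BM neutrophil replicate 1 and Icam1 at 4.07 CPM in WT BM neutrophil replicate 3.

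Between the TAN groups, 7 of the named genes were called by edgeR, in a fit that used no BM library. In PyMT-Cxcr2-/- TANs over PyMT TANs the log2 fold changes were 0.86 for Bcl3, 1.58 for Lcn2, -0.97 for Ccl3, -0.97 for Icam1, -1.19 for Ikbke, -1.39 for Il1a and -1.25 for Tnf. The naming rule takes up genes called in this same comparison, so their number follows in part from the rule. Of all genes tested, 1.98% were called. These calls did not hold under all settings, as given above.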

How the results depend on the processing

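Of the 10 genes, 8 or 9 were called against the BM under each of the 20 alternatives in both TAN groups. Between the TAN groups, where 1 of the 10 genes and 6 genes of the lists were called, the counts were 0 and 4 at 2-fold. They were 0 and 0 with a replicate block, with 13 genes called in the whole data set, 0 and 0 with the block and the trends of GC content and gene length, with 8, and 0 and 0 with the libraries high in macrophage markers left out, with 1, where edgeR without that choice called 365. At an unadjusted p under 0.05, edgeR had 4, 1 and 4 of the 10 genes under these 3 settings, and 21, 18 and 18 genes of the lists. DESeq2 called 1 of the 10 genes and 13 of the lists, and 1039 in all, and the fit of 12 libraries called 886. Leaving out 1 library gave 0 to 1 of the 10 genes and 0 to 7 of the lists. The lowest counts were without PyMT TAN replicate 2, with 23 calls in all, and without PyMT-Cxcr2-/- TAN replicates 3 and 4, where 3, 3 and 4 of the 10 genes had an unadjusted p under 0.05. Whether the replicate numbers mark samples handled together is not given in the sources used here, and correlations of 4 libraries per group cannot settle it. Deviations of libraries with the same number had correlations of -0.32 to 0.01 between the TAN groups, -0.18 to 0.12 between PyMT TANs and the BM and 0.02 to 0.16 between PyMT-Cxcr2-/- TANs and the BM, and 0, 0 and 2 of the numbers correlated best with their own. In the same order, the mean correlation was -0.18, -0.048 and 0.11 for the same number and 0.060, 0.019 and -0.036 for other numbers.

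Differences that were never called changed sign. Nfkb1 in PyMT TANs over the BM was -0.21 with the trends of GC content and length, -0.28 with the block added, and -0.11 to 0.31 with 1 library left out. Tnip1 in PyMT-Cxcr2-/- TANs over the BM was -0.042 and -0.060 in the same pair of settings. Between the TAN groups, Nfkbia was 0.054 without the libraries high in macrophage markers, Rel was -0.0090 with the filter at 1 CPM in 4 libraries, and with 1 library left out Tnfaip3 ranged from -0.013 to 0.26, Nfkbia from -0.19 to 0.11 and Rel from -0.067 to 0.16. The cause was not tested. Other scalings moved 16 of 60 mean CPM values by more than 1 SD.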
